A study of Mus musculus with 21 samples.

Results

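Collagen genes were taken as all rows of the normalized count table whose symbol consists of Col, a number, a and a number. The rule matched 43 genes of 34478, of which 36 reached 10 normalized counts in 3 or more samples and are called expressed here. The other 7 (Col6a4, Col6a5, Col9a1, Col9a2, Col13a1, Col19a1 and Col22a1) stayed below that level, and none of the 43 was at 0 in every sample. The 36 comprised 11 fibrillar, 8 network-forming, 7 beaded-filament or anchoring, 5 fibril-associated and 3 transmembrane collagens and 2 multiplexins.

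RNA of 6 murine pancreatic ductal adenocarcinoma (PDAC) cell lines, numbered #3, #4, #6, #7, #9 and #10, was sequenced in 4 states, with no more than 1 sample for each line and state, so that the lines were the replicates. All 21 samples carried the alleles Ptf1awt/Cre and Trp53loxP/loxP, in which Cre recombinase under control of the pancreatic gene Ptf1a removes Trp53, and the lines came from tumours of different mice. Parental cells (6 samples) had never met a MEK inhibitor. Resistant cells (6 samples) had been grown in rising doses of trametinib, an inhibitor of the kinase MEK, and were harvested in 100 times their IC50. P12 cells (6 samples) were resistant cells kept without the drug for 12 passages and P5 cells (3 samples, lines #3, #7 and #9) for 5 passages, although the description of P5 for lines #7 and #9 says 12. The resistant cells of a line arose in 1 selection, so a clone and a response to the drug cannot be told apart in them, and resistance and the presence of trametinib coincided. In cultures analysed in bulk, fewer cells of a type and less RNA per cell cannot be told apart.

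Collagens are secreted or membrane proteins of 3 chains wound into a triple helix, which fibroblasts produce in large amounts in the stroma of PDAC. Type I, III, V and XI chains form banded fibrils, type IV chains form the sheet of basement membranes beneath epithelia, and fibril-associated collagens such as types XII, XIV and XVI attach to the surface of fibrils. The chains are hydroxylated, glycosylated and folded in the endoplasmic reticulum, trimmed and cross-linked outside the cell, and recognised by integrins and discoidin domain receptors.

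The start regions of those collagen genes on which the results below turn are shown first, with sequences from RefSeq for build GRCm38.p6, the same assembly as mm10. Col4a4 and Col4a3 are neighbours on opposite strands of chromosome 1, and their start sites in GENCODE M21 are separated by 71 bases (chr1:82586850-82586920, given on the minus strand, that of Col4a4), the whole of the gap between them. Col4a5 lies on chromosome X, with 1308 bases between its start and that of Col4a6 on the other strand, and the 216 bases before its first exon are chrX:141475169-141475384 (plus strand). The 232 bases before the first exon of Col18a1 are chr10:77166549-77166780 (minus strand). Col18a1 has a further RefSeq start at 77113705, which is not shown. Its window matches the TEAD motif GGAATG at -104 to -99 and -54 to -49. The Col6a1 stretch of 27 bases at chr10:76726118-76726144 (minus strand) is shown for its match to the AP1 motif. Unlike the others, this stretch lies inside the gene as annotated in GENCODE M21, whose start is at 76726168. It precedes the RefSeq start at 76726044, with the match at -90 to -84. Capitals mark a CCAAT box, on the other strand in Col18a1, and in Col6a1 the AP1 match.
Col4a4/Col4a3 gap: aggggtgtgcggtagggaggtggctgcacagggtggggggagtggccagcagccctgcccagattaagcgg
Col4a5 upstream: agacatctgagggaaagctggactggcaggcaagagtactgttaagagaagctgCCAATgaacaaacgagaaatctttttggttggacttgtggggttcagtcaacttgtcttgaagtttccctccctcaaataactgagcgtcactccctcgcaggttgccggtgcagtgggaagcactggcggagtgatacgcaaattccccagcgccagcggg
Col18a1 upstream: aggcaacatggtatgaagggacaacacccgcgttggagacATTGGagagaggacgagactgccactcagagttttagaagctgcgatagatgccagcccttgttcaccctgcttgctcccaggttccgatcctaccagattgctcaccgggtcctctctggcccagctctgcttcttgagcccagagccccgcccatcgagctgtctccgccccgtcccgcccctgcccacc
Col6a1 AP1 match: gctgatgctgTGACTCActcagctttg

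Windows from 250 bases before to 50 bases after the RefSeq start were present for 28 of the 36 genes, in 30 windows. The AP1 motif TGANTCA, the binding sequence of the JUN and FOS families, occurred on either strand in 1 of the 30, that of Col6a1, and in 7.81% of all 32851 windows. The TEAD motif GGAATG occurred in 5 of 30 (14.7% of all windows), the E-box CACCTG in 3 (20.2%), CCAAT in 11 (37.4%) and TATAAA in 3 (13.6%), where matches of different motifs were free to overlap. A match describes these letters only, and factor binding was not measured.

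The depth estimated from the step between low values was 24 to 42.6 M reads per sample, and 3 reads corresponded to 2.31 to 4.07 normalized counts. Trp53 was at 178 to 475 normalized counts in the 21 samples, a sum over the gene that does not check the deleted exons. The epithelial marker Epcam was listed at 0 in 20 of 21 samples that held other epithelial markers, and whether this is a gap in the deposited table was not tested. The sum of 6 epithelial markers, held by 4 keratins and Cdh1, was 15942 to 282743 (median 246719) in parental cells, lowest in line #9, and 1014 to 209982 (median 62431) in resistant cells. The summed level of 8 fibroblast markers, all of which reached 10 in at least 1 resistant sample, was 55.4 to 3621 (median 109) in parental, 62.5 to 17879 (median 11496) in resistant and 87.3 to 9495 (median 6736) in P12 cells. In resistant cells Pdpn or Pdgfrb made up most of it in all lines but #7. Lum, a defining marker, was below 2 in all parental and P12 samples and in 5 of 6 resistant samples. Pdgfra and Thy1 were lower in resistant than in parental cells of lines #6, #7 and #9 and higher in the other lines. Pdgfra was at 29.1 to 416 in parental and 3.63 to 259 in resistant cells, and Fap at 0.834 to 9.78 and 0 to 54.1. The sum of 6 pericyte and smooth muscle markers was 52.2 to 1779 in parental and 245 to 16710 in resistant cells. Mcam was at 28.4 to 507 and 242 to 16033, Notch3 at 1.54 to 108 and 0 to 2145 and Des at 0 to 18.1 and 0 to 59.7. Rgs5 went the other way in every line, at 1.21 to 22.1 in parental and 0 to 7.37 in resistant cells. Cspg4 was at 3.29 to 1139 and 1.26 to 1759, lower in resistant cells of all lines but #3. Myh11 was at 0 in 5 of 6 parental and in all 6 resistant samples. The sum of 5 endothelial markers was 37.1 to 166 and 15.8 to 2753. Tek was at or below 15.8 in parental and at 5.34 to 2512 in resistant cells, and Kdr reached 83.7 and 865. Cdh5 reached 65.9 in parental but only 1.61 in resistant cells, and Emcn reached 0.282 and 0. Pecam1 was at 16.9 to 31.6 and 9.65 to 28.1, lower in resistant cells of lines #4, #7, #9 and #10 and higher in lines #3 and #6. The sum of 5 leukocyte markers had a median of 202 in parental cells and was 203 to 2902 (median 321) in resistant cells, with Csf1r at 2.67 to 39.7 and 17.7 to 2530 (highest in line #10) and Ptprc at 3.02 to 20.0 in all 21 samples. The part of these markers in the collagen results below was not tested.

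**Figure D1:**
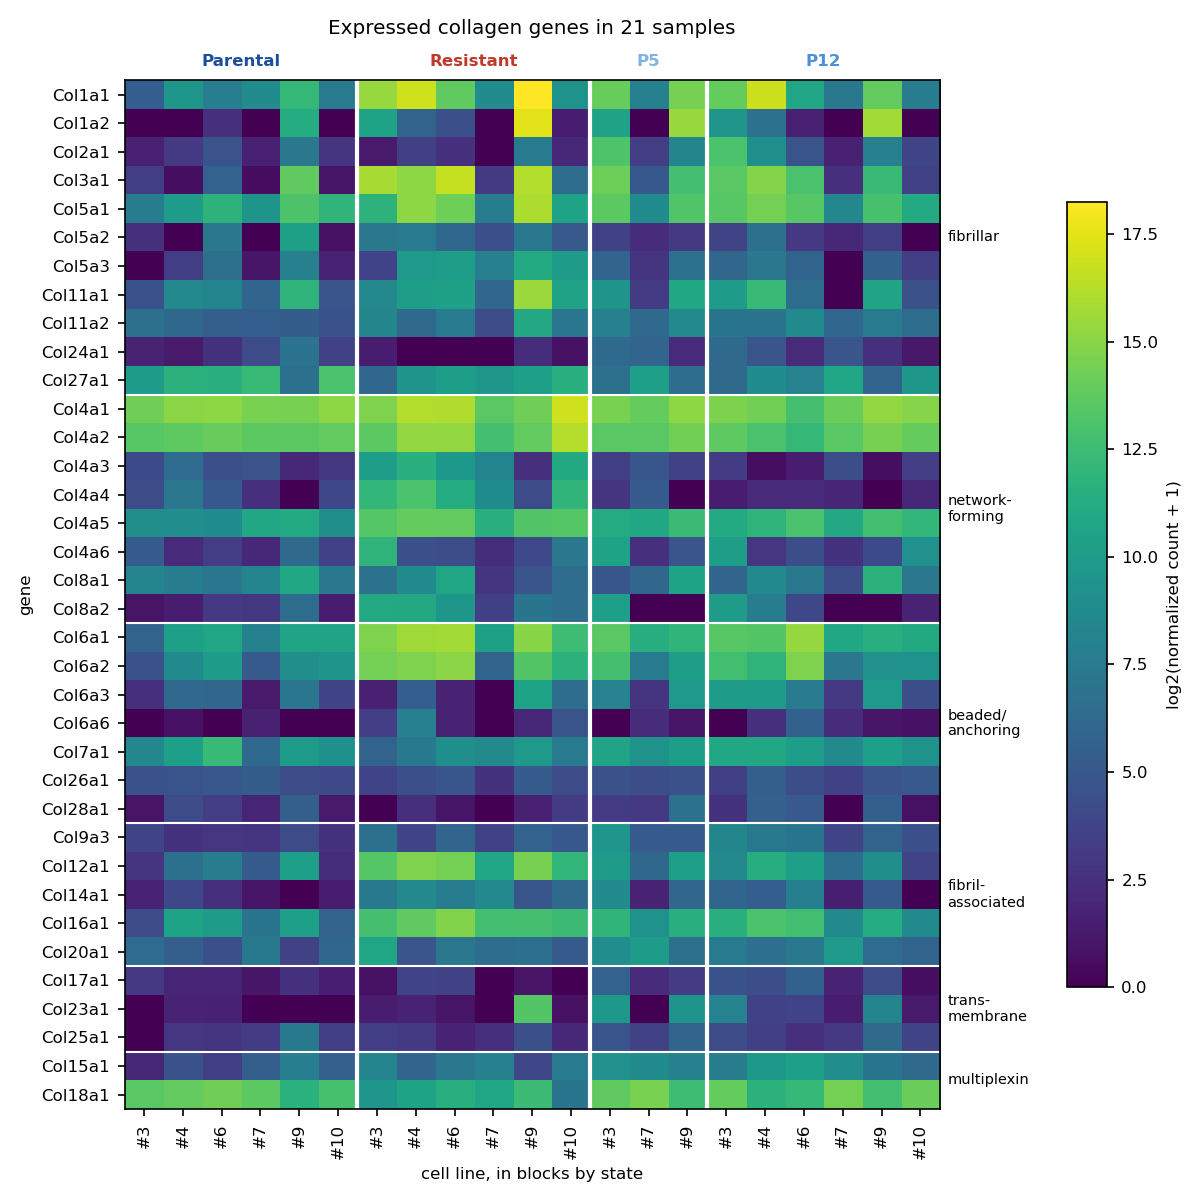
Level of the 36 expressed collagen genes (rows, by class) in 21 samples (columns, by state and line), as log2(normalized count + 1) from dark (0) to yellow. Col4a1 and Col4a2 were bright in every sample, whereas Col1a1, Col3a1, Col6a1, Col12a1 and Col16a1 were bright in most resistant samples and Col18a1 was darker there than in 5 of 6 parental samples.

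All 43 collagen genes together made up 0.145% to 0.278% (median 0.223%) of the normalized counts in parental samples and 0.11% to 2.45% (median 0.932%) in resistant samples. The share was 0.441% (range 0.192% to 0.767%) in P12 and 0.497% (0.183% to 0.558%) in P5 cells. Resistant cells exceeded their own parental cells in 5 of 6 lines, and line #7 was the exception, with 0.181% in parental and 0.11% in resistant cells. Col4a1 contributed the most counts in all 6 parental samples, at 26.6% to 48.4% of the collagen sum. In resistant cells the leading gene was Col1a1 in lines #4 and #9, Col3a1 in lines #3 and #6, and Col4a1 in lines #7 and #10. Per kb of transcript, the median level in parental cells was highest for Col4a1 (4481 per kb), Col18a1 (2208 per kb) and Col4a2 (2068 per kb), and in resistant cells for Col3a1 (8655 per kb), Col4a1 (7349 per kb) and Col6a1 (7204 per kb), although Col3a1 ranged from 1.34 to 18257 per kb there.

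Of the 36 expressed collagen genes, 7 differed between resistant and parental cells (limma, a change of more than 1 on the log2 scale at an adjusted p under 0.01), a share of 19.4% beside 5.3% of all 19300 genes tested. Of these, 6 rose and 1 fell, beside 2.57% and 2.73% of all genes. Col4a4 and Col4a5 of the basement membrane, Col6a1 of beaded filaments and the fibril-associated Col12a1, Col14a1 and Col16a1 rose, and Col18a1 fell. The median log2 fold change was 1.98 over the 36 genes and -0.0049 over all genes. With the cell line as a block 12 collagen genes were called (10.5% of all genes), and Col1a1, Col3a1, Col4a3, Col5a3 and Col6a2 were added, all higher in resistant cells. Every resistant sample lay above every parental sample for Col4a5, Col12a1, Col14a1 and Col16a1 (2.83% of all genes tested). Leaving out 1 line left between 1 and 6 collagen genes called, and without line #3 only Col4a5 was called.

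**Figure D2:**
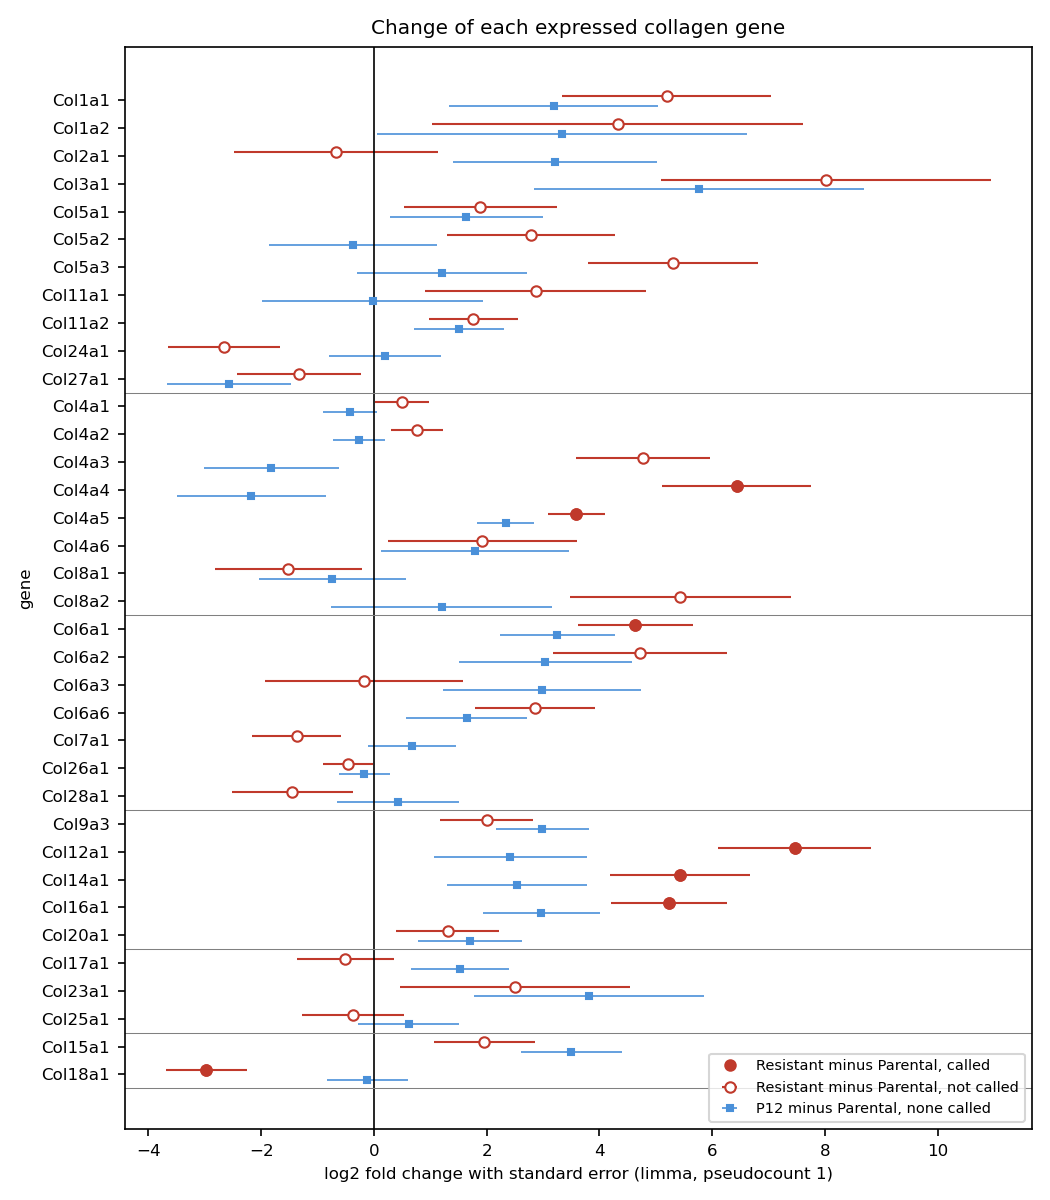
Log2 fold change with its standard error (limma, n = 6 lines per state) of each expressed collagen gene between resistant and parental cells (red circles, filled where called) and between P12 and parental cells (blue squares, none called). Grey lines separate the classes in the order fibrillar, network-forming, beaded-filament and anchoring, fibril-associated, transmembrane and multiplexin.

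Among the 6 chains of type IV collagen, the abundant pair Col4a1 and Col4a2 did not pass the test, and Col4a4 and Col4a5 rose in resistant cells. Col4a1 and Col4a2, which form the common basement membrane network and are transcribed in opposite directions from starts that overlap by 22 bases on chromosome 8, were high in every sample. Col4a1 was at 20475 to 36605 normalized counts (median 29640) in parental and 12466 to 122494 (median 48616) in resistant cells. Col4a2 was at 11691 to 16545 (median 13339) and 7042 to 76834 (median 27097). The groups overlapped for both, with line #10 highest and line #7 lowest among resistant samples. The log2 fold change was 0.49 (SE 0.48, adjusted p = 0.538) for Col4a1 and 0.76 (SE 0.46, adjusted p = 0.285) for Col4a2.

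Col4a3 and Col4a4, chains of the specialised network of the kidney glomerulus that share the 71-base start region printed above, followed each other over the samples. In lines #3, #4, #6, #7, #9 and #10, Col4a4 was at 17.4, 153, 31.8, 4.40, 0 and 14.9 normalized counts in parental cells and at 4280, 8570, 2576, 466, 17.9 and 3948 in resistant cells. In P12 cells of the same lines it was at 1.68, 3.48, 3.84, 2.93, 0 and 3.18, near or below the value of 3 reads. Every line was higher in resistant than in parental cells, line #9 stayed under 20, and all P12 samples lay below all resistant samples (1.06% of all genes tested). Col4a4 was 86.3-fold higher in resistant than in parental cells (log2 fold change 6.43, SE 1.33, adjusted p = 0.00316), a call lost without line #3, #6 or #10 and when only these states were fitted. From resistant to P12 cells it fell by 8.60 on the log2 scale (SE 1.33, adjusted p = 0.000739), with a log2 fold change between -9.47 and -6.95 over the alternatives and no call without line #3 (adjusted p = 0.012).

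Col4a3 followed with 16.0, 82.0, 21.1, 24.5, 3.23 and 6.62 normalized counts in parental cells of the lines in the same order, and 1149, 3028, 858, 301, 4.41 and 2200 in resistant cells. The 6 P12 samples were at 0.608 to 19.9 (median 5.00). Line #9 stood apart, with no more than 4.41 in these states. The log2 fold change between resistant and parental cells was 4.78 (SE 1.19, adjusted p = 0.0112) and missed the threshold, but passed under the cell line block (adjusted p = 0.00351) and without line #9. From resistant to P12 cells Col4a3 fell by 6.59 on the log2 scale (SE 1.19, adjusted p = 0.00258), and this was not called without line #3, #4, #6 or #10 or when only these states were fitted.

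Col4a5 (chrX:141475385-141689234, plus strand, mm10), an X-linked chain found with Col4a3 and Col4a4 or with Col4a6, was at 516, 494, 475, 1845, 2226 and 536 normalized counts in parental cells of lines #3, #4, #6, #7, #9 and #10. In resistant cells of these lines it was at 11322, 15510, 15143, 2714, 10282 and 11048. The 2 groups did not overlap, with the smallest difference in line #7. Col4a5 was 12.0-fold higher in resistant cells (log2 fold change 3.59, SE 0.50, adjusted p = 0.000153), and this call was kept in all 15 alternatives. The threshold of 0.05 was 1 of them and could not have lost it. In P12 cells Col4a5 stayed at 2092 to 8417 (median 4038), below the resistant and above the parental sample in 6 of 6 lines. Its difference between P12 and parental cells had a log2 fold change of 2.34 (SE 0.50, adjusted p = 0.0402), short of the threshold of 0.01. In this fit Col4a5 was the only collagen gene under 0.05. With the cell line as a block its adjusted p in limma was 0.0156. Col9a3 (0.0146), Col16a1 (0.0315), Col6a1 (0.0324) and Col27a1 (0.0419) were then also under 0.05, and none passed 0.01.

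**Figure D3:**
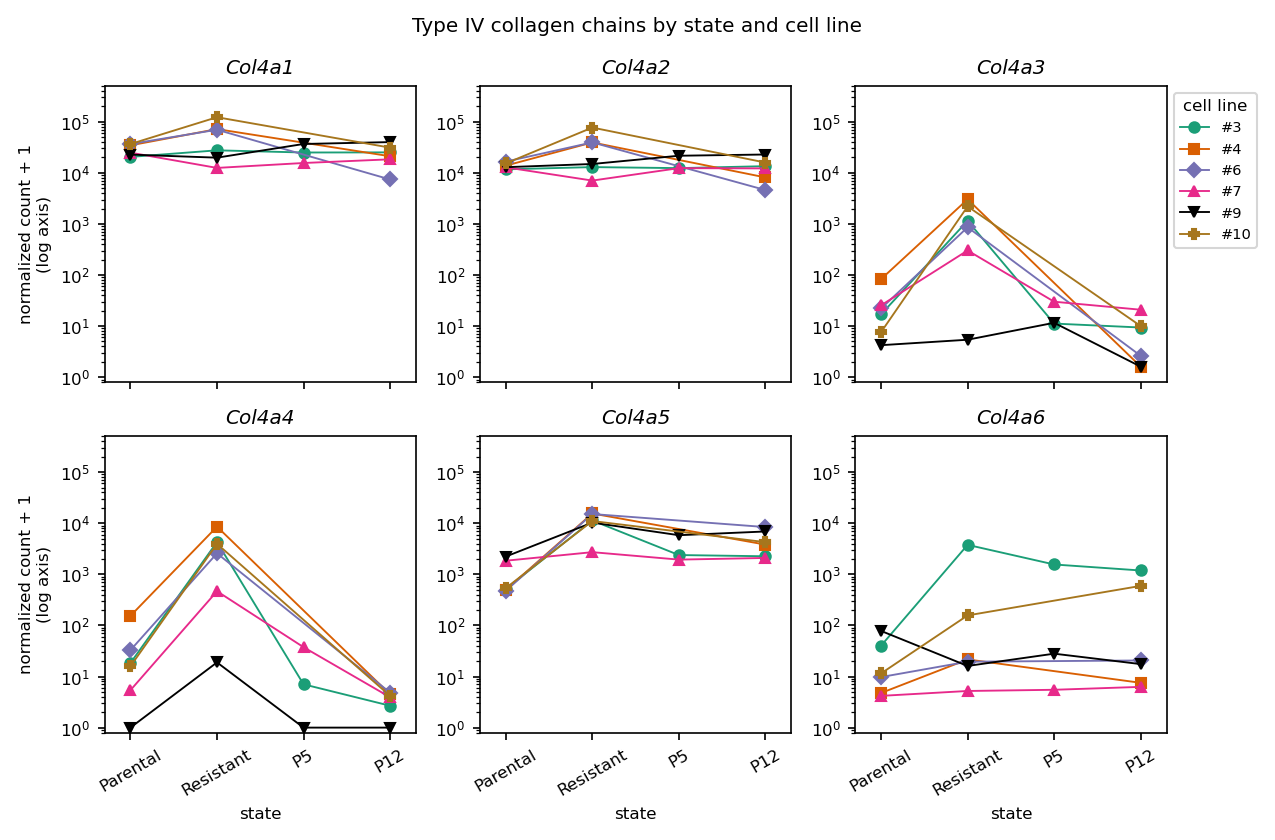
Normalized count + 1 (log axis) of the 6 type IV collagen chains in parental, resistant, P5 and P12 cells, with 1 coloured line per cell line. Col4a1 and Col4a2 stayed between 4597 and 122494, Col4a3 and Col4a4 were above 300 in 5 of 6 resistant lines and under 40 in P5 and P12 cells, and Col4a5 remained at 1940 or more after withdrawal.

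Col4a6, the head-to-head neighbour of Col4a5, was at 3774 in resistant cells of line #3 and 156 in line #10, and at 4.21 to 20.6 in the other 4 lines, with parental levels of 3.18 to 77.0 (log2 fold change 1.93, SE 1.67, adjusted p = 0.486). Line #3 retained 1558 in P5 and 1188 in P12. The chains of type VIII collagen, a short-chain network collagen of vessel walls and the cornea, differed from each other. Col8a2 was at 0.991 to 84.4 (median 4.29) in parental and 10.0 to 2318 (median 464) in resistant cells, higher in 6 of 6 lines. Its log2 fold change of 5.44 (SE 1.96) did not pass (adjusted p = 0.0663, or 0.0212 with the cell line as a block). Col8a1 was at 145 to 1910 (median 250) and 6.10 to 1701 (median 98.9), and its log2 fold change was -1.52 (SE 1.31, adjusted p = 0.481). The log2 ratio of Col8a1 to Col8a2 was lower in resistant than in parental cells in 6 of 6 lines, with a mean difference of -6.96 ± 2.86 (SD, n = 6 lines), and is described without a test.

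No fibrillar collagen of 11 passed the threshold between resistant and parental cells, though 3 passed with the cell line as a block, and the lines differed widely. Col1a1, the main chain of type I collagen, was at 42.5, 797, 224, 438, 4650 and 181 normalized counts in parental cells of lines #3, #4, #6, #7, #9 and #10. In resistant cells it was at 44006, 126851, 14363, 446, 311103 and 625. Lines #3, #4, #6 and #9 thus reached 14363 or more, whereas line #7 was nearly level between the states. The log2 fold change was 5.19 (SE 1.86, adjusted p = 0.0634), which passed once the cell line was fitted as a block (adjusted p = 0.00363).

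Col1a2, the partner chain that forms type I collagen with Col1a1, did not accompany it in every line. It was at 0 in parental cells of lines #3, #4, #7 and #10, at 4.38 in line #6 and at 2517 in line #9. In resistant cells it was at 1530 in line #3, 56.6 in line #4, 21.3 in line #6, 0 in line #7, 174820 in line #9 and 1.57 in line #10. Line #9 was the highest in each state, and its log2 ratio of Col1a1 to Col1a2 was 0.83 in resistant cells beside 4.85 to 11.10 in the other 5 lines. The log2 fold change of Col1a2 was 4.33 (SE 3.29, adjusted p = 0.415), and the cell line held 78.8% of its sum of squares over parental, resistant and P12 samples, more than for any other of the 36 genes.

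Col3a1, the chain of type III collagen of loose connective tissue, was at 0.510 to 52.6 normalized counts in 5 parental lines and at 14413 in line #9. Resistant cells held 59148, 37167, 101583, 7.43, 73900 and 85.8 in lines #3, #4, #6, #7, #9 and #10. It was higher in resistant cells in 6 of 6 lines, but lines #7 and #10 stayed under 100. In 3 of 6 parental samples Col3a1 was at or below the value of 3 reads, which limits its fold change. Its log2 fold change of 8.01 (SE 2.93) was the highest of the 36 genes and was called with the cell line as a block (adjusted p = 0.00252) but not without (adjusted p = 0.0694). In P12 cells lines #3, #4, #6 and #9 held 5011 to 29717, and lines #7 and #10 held 4.76 and 11.1. The P12 sample of line #9, at 5011, was below its own parental sample at 14413, and the other 5 lines were above theirs.

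**Figure D4:**
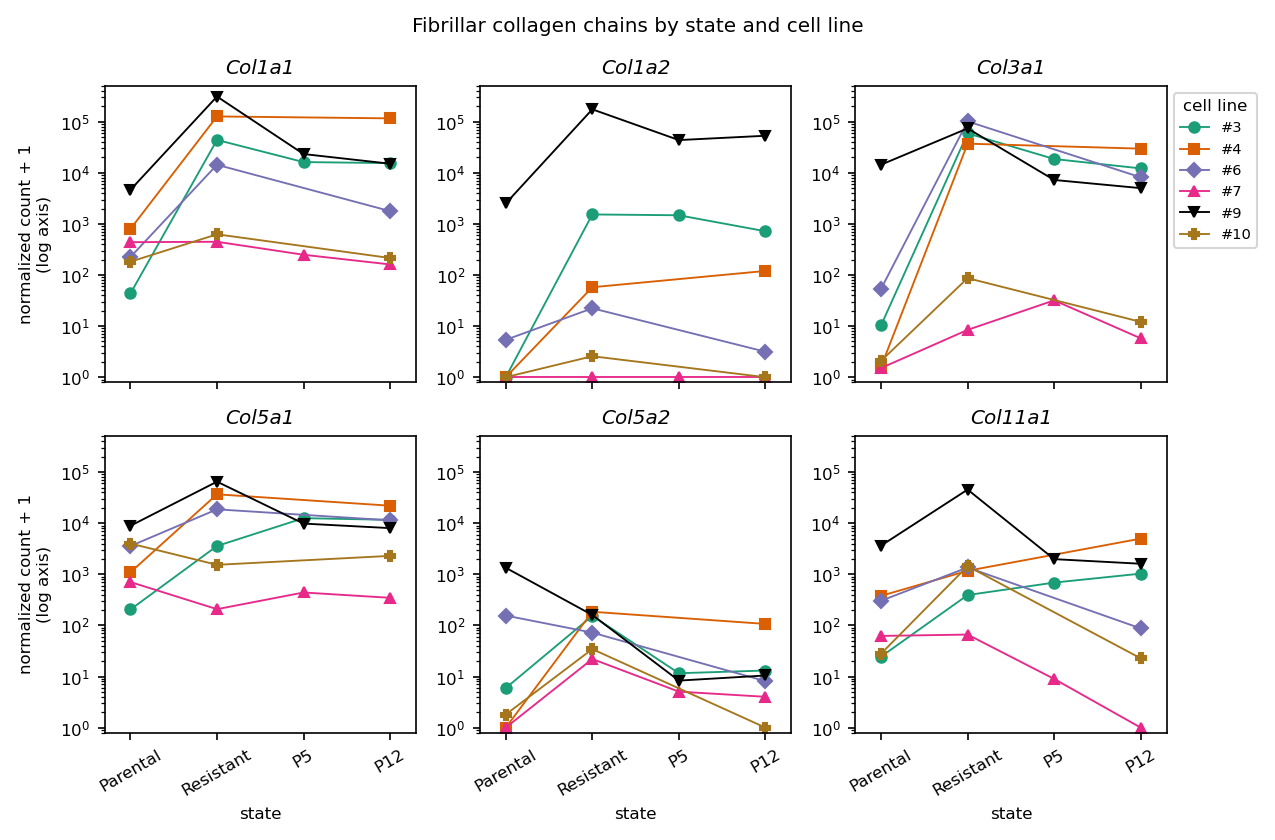
Normalized count + 1 (log axis) of 6 fibrillar collagen chains by state, with 1 coloured line per cell line. Resistant cells of lines #7 and #10 stayed at or below 625 for Col1a1 and below 100 for Col3a1, and Col1a2 reached 2517 or more in line #9 only.

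Type V and XI chains, which join fibrils of other collagens and limit their width, varied by line as well. Col5a1 was at 204 to 8917 (median 2335) in parental and 207 to 65133 (median 11149) in resistant cells, higher in 4 of 6 lines, with a log2 fold change of 1.88 (SE 1.36, adjusted p = 0.386). Col5a2 was at 0 to 1344 (median 2.88) and 21 to 184 (median 112), with a log2 fold change of 2.79 (SE 1.49, adjusted p = 0.224). Col5a3 was higher in resistant cells in 6 of 6 lines, at 0 to 242 (median 5.91) against 11.7 to 2314 (median 967), and was called only under the block (log2 fold change 5.31, SE 1.51, adjusted p = 0.0224 without and 0.00306 with the block). Col11a1 was also higher in 6 of 6 lines, with 45580 in resistant cells of line #9 (log2 fold change 2.87, SE 1.96, adjusted p = 0.358). Col24a1 was lower in resistant cells in 6 of 6 lines at levels of at most 124 (log2 fold change -2.65, SE 0.99, adjusted p = 0.0757). In 5 of 6 resistant samples it was at or below the value of 3 reads, which limits its fold change. Col2a1, the cartilage collagen, was at or below 189 in all parental and resistant samples but at 9346 in P5 and 8651 in P12 of line #3. Col27a1, a fibrillar collagen of cartilage, was lower in P12 than in parental cells in 6 of 6 lines, and its log2 fold change of -2.58 (SE 1.1, adjusted p = 0.269) was the lowest of the 36 in that comparison.

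Type VI collagen forms beaded filaments around cells from the chains of Col6a1, Col6a2 and Col6a3. Col6a1 (chr10:76708792-76726168, minus strand) was at 55.4, 1269, 1765, 255, 1631 and 1589 normalized counts in parental cells of lines #3, #4, #6, #7, #9 and #10. In resistant cells it was at 26769, 51063, 54282, 1338, 32305 and 6145. It rose in resistant cells by 4.63 on the log2 scale (SE 1.02, adjusted p = 0.00497), or 24.8-fold, and was higher in 6 of 6 lines, with only line #7 inside the parental range. The call was lost without any 1 of lines #3, #4, #6, #9 or #10 and when only these states were fitted. All P12 samples (1938 to 41927, median 6677) lay above all parental samples, which was so for 0.793% of all genes tested, but the difference was not called (log2 fold change 3.26, SE 1.02, adjusted p = 0.133).

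Col6a2 was at 22.9 to 1031 (median 465) in parental and at 59.2 to 34042 (median 16191) in resistant cells, with line #7 the lowest resistant sample. Its log2 fold change of 4.72 (SE 1.54) was called with the cell line as a block (adjusted p = 0.00276) and not without (adjusted p = 0.0429). Col6a3 had no such difference (log2 fold change -0.17, SE 1.76, adjusted p = 0.964), since it was at 0 to 89.8 in 5 resistant lines and at 1556 in line #9. In P12 cells Col6a3 was at 1089, 1010, 194, 7.33, 926 and 20.1 in lines #3, #4, #6, #7, #9 and #10, above the parental sample in 6 of 6 lines (log2 fold change 2.99, SE 1.76, adjusted p = 0.427). Of the remaining members of this class, Col7a1, the anchoring fibril collagen of epithelia, was lower in resistant cells in 5 of 6 lines, at 74.4 to 5305 (median 775) in parental and 55.6 to 915 (median 289) in resistant cells (log2 fold change -1.37, SE 0.79, adjusted p = 0.264). Col6a6, Col26a1 and Col28a1 stayed at or below 248 in every sample.

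Of 5 expressed fibril-associated collagens, 3 rose in resistant cells. Col12a1 (chr9:79598991-79718831, minus strand), which links fibrils to other matrix proteins and is found in dense connective tissue, was at 6.03, 104, 198, 38.1, 1270 and 4.20 normalized counts in parental cells of lines #3, #4, #6, #7, #9 and #10. In resistant cells it was at 11340, 26313, 22059, 1716, 23104 and 4359. All resistant samples exceeded all parental samples, line #7 included. The difference was 176-fold (log2 fold change 7.46, SE 1.35, adjusted p = 0.00128), and without line #3 it was not called (adjusted p = 0.0145). In P12 cells Col12a1 was at 12.1 to 2621 (median 471), lower than in resistant cells in 6 of 6 lines (log2 fold change -5.04, SE 1.35, adjusted p = 0.0295, or 0.0013 under the cell line block, which passed).

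Col16a1 (chr4:130047840-130099283, plus strand), which is found with fibrils and in basement membrane zones, was at 18.1, 1570, 1081, 138, 1254 and 55.8 in parental cells and at 7545, 14426, 28429, 6719, 7369 and 5922 in resistant cells of these lines. All resistant samples were above all parental samples, with line #6 the highest and line #10 the lowest. Col16a1 was 37.6-fold higher (log2 fold change 5.23, SE 1.03, adjusted p = 0.00228), a call lost without line #3 or #10. P12 cells held 398 to 8455 (median 2816), lower than resistant in 6 of 6 lines and higher than parental in 6 of 6 lines, with neither difference called (adjusted p = 0.226 and 0.178).

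Col14a1 (chr15:55307750-55520803, plus strand), a fibril-associated collagen of skin and tendon, was at 0 to 14.8 (median 2.07) in parental and 27.9 to 393 (median 183) in resistant cells. The groups did not overlap, but parental values were mostly at or below the value of 3 reads. The log2 fold change was 5.43 (SE 1.24, adjusted p = 0.00638), and the call was lost when any 1 line was left out. Col9a3 was higher in resistant cells in 6 of 6 lines (5.23 to 18 against 11.1 to 107, adjusted p = 0.111), and Col20a1 in 3 of 6.

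**Figure D5:**
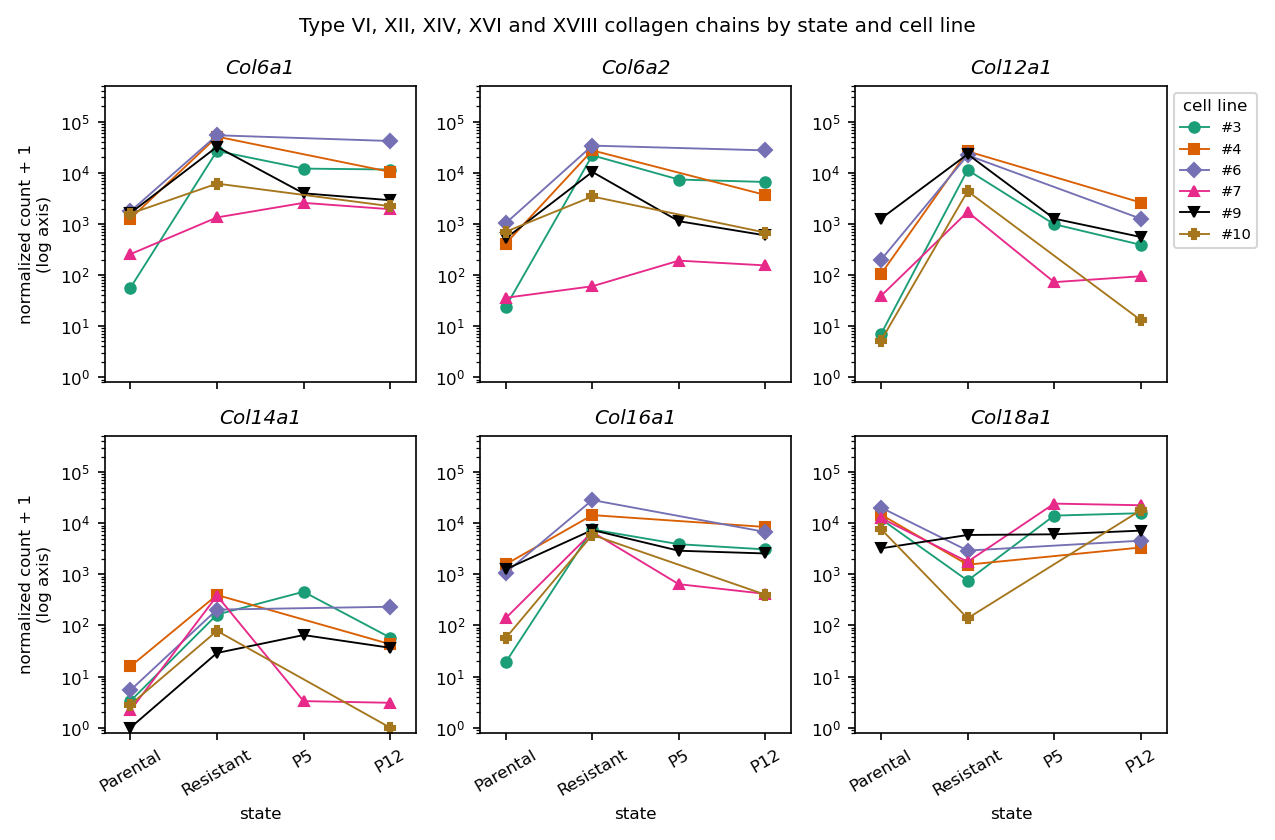
Normalized count + 1 (log axis) of Col6a1, Col6a2, Col12a1, Col14a1, Col16a1 and Col18a1 by state, with 1 coloured line per cell line. Col12a1, Col14a1 and Col16a1 were higher in every resistant than in every parental sample, and Col18a1 was lower in resistant than in parental cells in all lines but #9.

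Col18a1 (chr10:77052178-77166548, minus strand), a basement membrane collagen whose C-terminal fragment is endostatin, was the only collagen gene called lower in resistant cells. It was at 12080, 14699, 20236, 12632, 3224 and 7667 normalized counts in parental cells of lines #3, #4, #6, #7, #9 and #10. In resistant cells it was at 754, 1544, 2914, 1761, 5891 and 137. It was lower in 5 lines and higher in line #9. Resistant cells were 7.83-fold lower (log2 fold change -2.97, SE 0.72, adjusted p = 0.00952), just inside the threshold, and 8 of 15 alternatives lost the call. P12 cells held 15705, 3348, 4553, 22494, 7165 and 17916, above the resistant sample in 6 of 6 lines (log2 fold change 2.85, SE 0.72, adjusted p = 0.0218, not called) and at 7165 or more in lines #3, #7, #9 and #10. In P5 cells lines #3, #7 and #9 were at 14106, 24197 and 6070. Col15a1, the other multiplexin, was at 3.23 to 226 (median 34.2) in parental, 14.1 to 303 (median 160) in resistant and 76.9 to 1244 (median 345) in P12 cells, with no call (adjusted p = 0.151 and 0.0747 against parental cells).

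The transmembrane collagens were low. Col17a1, the hemidesmosomal collagen, stayed at or below 51.9 in every sample, and Col25a1 at or below 163. Col23a1 was at 10527 in resistant cells of line #9 and at no more than 2.37 in the other 5 resistant lines, and it was at 684 in P5 and 297 in P12 of line #9 and at 833 and 271 in line #3.

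Between resistant and P12 cells, 2 of 36 collagen genes were called, Col4a3 and Col4a4, both lower in P12, beside 2.13% of all genes tested and 0.85% lower in P12. With the cell line as a block the count was 3, with Col12a1 added (4.52% of all genes). The median log2 fold change was -0.96 over the 36 genes and 0.02 over all genes. Between P12 and parental cells 0 of 36 passed in limma, beside 0.114% of all genes, and 6 had an unadjusted p below 0.05 (15.3% of all genes). With the cell line as a block 0 passed (0.523% of all genes) and 19 had an unadjusted p below 0.05 (23.8% of all genes). The median log2 fold change between P12 and parental cells was 1.59 over the 36 genes and 0.03 over all genes, and 26 of 36 were above 0.

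Of the log2 difference between resistant and parental cells, P12 cells kept 65.1% for Col4a5, 70.2% for Col6a1, 56.8% for Col16a1, 46.6% for Col14a1, 32.4% for Col12a1 and 3.92% for Col18a1. These values average lines that differed. The log2 difference between P12 and parental cells ran from -1.495 (line #10) to 5.43 (line #6) for Col14a1. It ran from -1.20 (line #9) to 5.79 (line #3) for Col12a1 and from 0.48 (line #10) to 7.69 (line #3) for Col6a1. For Col18a1 it was -2.13 in line #4 and -2.15 in line #6, and above 0 in the other lines. For Col4a4 the P12 level lay below the parental level, but this difference was not called in limma (log2 fold change -2.17, SE 1.33, adjusted p = 0.444). Its P12 level was at or below 3 reads in 4 samples. These shares share the parental samples and are a description. P12 and P5 cells of the same line were within 2-fold for 24 of 36 collagen genes in line #3, 26 in line #7 and 29 in line #9, beside 87.9%, 86.4% and 87.4% of all genes. P5 and resistant cells were within 2-fold for 10, 11 and 13 of 36, beside 69.2%, 66.7% and 69.2% of all genes.

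The lines differed in how many collagen genes changed. In resistant against parental cells, more than 2-fold higher levels were found for 24 of 36 genes in lines #3, #4 and #10, 23 in line #6, 21 in line #9 and 11 in line #7, beside 15.3% to 22.4% of all genes in a line. In line #7, 12 genes were more than 2-fold lower (33.3%, beside 23.5% of all genes) and the median log2 difference was 0.01. In line #7 the epithelial marker Cdh1 was at 53229 in parental and 16401 in resistant cells, beside 4.01 to 2120 in the other resistant lines, while Krt7 was at 39499 and 150, the lowest resistant value. The epithelial sum of line #7 was the highest of the resistant samples, at 209982, and its sum of fibroblast markers was the lowest, at 62.5. Their part in the difference was not tested. Over parental, resistant and P12 samples, the cell line held a larger share of the sum of squares than the state for 21 of 36 genes, and the state a larger share than the line for 15. The state share was highest for Col4a5 (75.3%), Col4a4 (73.4%) and Col12a1 (64.4%).

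Ratios between partner chains were tested where both chains were well above the read floor. The log2 ratio of Col4a1 to Col4a2 differed by -0.27 ± 0.31 (mean and SD over n = 6 lines) between resistant and parental cells, with p = 0.0938 and an adjusted p = 0.562 over 6 tests in an exact permutation test that flips the sign of each line. It was the smallest p of the 6 tests. The log2 ratio of Col6a1 to Col6a2 differed by -0.09 ± 0.92 (SD, n = 6 lines, exact permutation p = 0.781). With 6 lines the smallest p such a test can give is 0.0312.

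Genes that build, trim and bind collagens were compared from 4 lists with 50 expressed members. Of these, 7 were called between resistant and parental cells (5.3% of all genes), 6 higher and 1 lower, and 2 to 11 were called when 1 line was left out, with the lowest count without line #3. Among 23 genes of chain folding and modification, 4 rose and none fell. They were Plod2, P4ha2, P3h1 and Plod1, which hydroxylate lysine or proline residues of the chains. P4ha2 was at 655 to 1936 (median 1259) normalized counts in parental and 2487 to 9717 (median 6887) in resistant cells, which did not overlap (log2 fold change 2.31, SE 0.33, adjusted p = 2e-04). Plod2 was at 403 to 1795 (median 911) and 2551 to 10193 (median 8694), with a log2 fold change of 2.84 (SE 0.63, adjusted p = 0.00541). Plod1 had a log2 fold change of 1.94 (SE 0.30, adjusted p = 0.000372) and P3h1 of 1.98 (SE 0.43, adjusted p = 0.00441). For Plod1, P4ha2 and Plod2 all 6 lines were higher in resistant cells, and for P3h1 all but line #7.

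Of 12 genes of cleavage and cross-linking only Adamts3, a procollagen N-propeptidase, was called, at 0 to 17.8 in parental and 55.2 to 1162 in resistant cells (log2 fold change 5.16, SE 1.22, adjusted p = 0.0079). With the cell line as a block, Lox and Loxl1, which cross-link fibrils, and Tll1, a propeptidase, were added (adjusted p = 0.00432, 0.000225 and 0.00804). Of 10 receptor and uptake genes, Ddr1, a receptor kinase for fibrillar and type IV collagen, was at 3494 to 9423 (median 4782) in parental and 9715 to 39811 (median 31081) in resistant cells (log2 fold change 2.11, SE 0.36, adjusted p = 0.000784). Itga2, the alpha chain of an integrin that binds fibrillar collagen, fell from 9712, 15475, 11682, 18908, 686 and 6155 to 16.4, 10.8, 84.8, 1662, 3.74 and 44.1 in lines #3, #4, #6, #7, #9 and #10 (log2 fold change -7.39, SE 1.48, adjusted p = 0.00256). No collagenase of 5 expressed was called. Between resistant and P12 cells P4ha2, Plod1 and Ddr1 fell (3 of 50, beside 2.13% of all genes, log2 fold changes -1.74, -1.42 and -1.67; 0 of 50 without line #3, #4, #6 or #10 or when only these states were fitted), and between P12 and parental cells 0 of 50 were called in limma (0.114% of all genes) and 9 had an unadjusted p below 0.05 (15.3% of all genes). Under the block the counts were 13, 6 and 0 (10.5%, 4.52% and 0.523% of all genes), with P4ha1, Fkbp9 and Mrc2 also added to the first and Plod2, Loxl1 and Itga2 to the second.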

How the data were processed

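The table held signal values: per the file headers and the study's methods, gene-level counts that the authors trimmed with Skewer, quantified with Salmon 0.12 on mm10, imported with TXImport, normalized in DESeq2 1.18 and deposited without the raw counts. Low values fell within 10% of a step for 72.3% to 82% per sample, so whole reads were not recovered, no count test was run, and depth is an estimate that covers counting error only. All 21 columns were used, grouped by title. The sequencer and demultiplexing software (CASAVA 2.17 or bcl2fastq 2.19) of each sample is not given in the sources used here, so no comparison within batches was made.

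Genes at 10 or more in at least 3 samples were tested on log2(value + 1) with limma 3.58.1 (R 4.3.3, eBayes with a trend, 1 fit of all 4 states, no covariate), adjusted by Benjamini-Hochberg over 19300 genes and called where the adjusted p was under 0.01 and the change exceeded 1 on the log2 scale. Fold changes are on the log2(value + 1) scale, which understates those of low genes. Fold values are powers of 2 of these differences. The unit of replication is the cell line, each derived from a different mouse, and samples of 1 line share its number: deviations from the state means correlated with a mean r of 0.241 (parental and resistant), 0.457 (resistant and P12) and 0.316 (parental and P12) within lines and -0.0462, -0.0903 and -0.0645 between lines. Chain ratios were tested with Python 3.11.15 and scipy 1.17.1. In simulated data for resistant and parental cells with 19300 genes, fitted without the block, 42 of 100 genes changed by 2 on the log2 scale and 55 of 100 changed by 3 were recovered, and 0 unchanged genes were called. With the cell line as a block 53 and 67 were recovered, and 1 unchanged gene was called. The simulated noise was normal and had no floor at 0, unlike the values of low genes.

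Members and lists were chosen with earlier results of these data known. Every collagen gene is accounted for. Values are given for those called, for the chains of types I, III to VIII, XII, XVII and XVIII, for the largest and smallest change of each comparison and for up to 4 called genes of each other list, and further collagen genes were named after their values were seen. Col10a1 and Mia2 are not analysed here. A further part of the genotype that all samples share is not reported here. Lengths per kb are those of the longest coding transcript in GENCODE M21. Motifs were searched on both strands. The alternatives were a block for the cell line, a pseudocount of 0.5 or 8, no filter or one on a mean of 100, upper quartile rescaling, no trend in limma, a fit of the compared states alone, a threshold of 0.05 and each line left out. The threshold of 0.05 can add calls but cannot lose any.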

Additional observations from a re-analysis of the deposited data

Results flagged for a closer look

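In 69 groups of 6 samples (23 collagen genes in 3 states), 5 had a highest or lowest sample whose gap to the next exceeded the Dixon limit at 95% on the log2 scale, and chance marks about 1 group in 20. Col1a2 was at 2517 normalized counts in parental cells of line #9, beside 4.38 in the next sample. Col8a1 was at 1910 in parental cells of line #9, beside 307 in the next. Col4a3 was at 4.41 in resistant cells of line #9, beside 301 in the next. In resistant cells of line #7, Col4a5 was at 2714 (next sample 10282) and Col6a2 at 59.2 (next sample 3438). Of the 5 samples, 3 were of line #9 and the others of line #7.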

How the results depend on the processing

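The number of collagen genes called between resistant and parental cells (7) was 12 with the replicate block, 4 with the compared states only and 1 to 6 without 1 line. Between P12 and resistant cells (2) it was 1 with the compared states only, 4 at an adjusted p below 0.05 and 0 to 3 without 1 line, with 0 without line #3, and between P12 and parental cells (0) it was 1 at an adjusted p below 0.05. For the synthesis, processing and receptor genes the first count (7) was 13 with the block, 14 at an adjusted p below 0.05 and 2 to 11 without 1 line, and the second (3) was 6 with the block, 5 at an adjusted p below 0.05, 1 with no filter, with upper quartile rescaling and without a trend, 0 with the compared states only and 0 to 2 without 1 line. Over all genes, resistant and parental cells differed in 1023 genes, 2017 with the block, 2190 at an adjusted p below 0.05 and 456 to 1239 without 1 line. P12 and resistant cells differed in 412 genes, 872 with the block, 93 with the compared states only, 947 at an adjusted p below 0.05 and 132 to 459 without 1 line. P12 and parental cells differed in 22 genes, 101 with the block, 5 with a mean of at least 100, 12 with the compared states only, 116 at an adjusted p below 0.05 and 4 to 68 without 1 line. The log2 ratio of Col6a1 to Col6a2 between resistant and parental cells lay between -0.429 and 0.0889 without 1 line, reversing without line #3 and without line #4 (0.0437). The other directions that reversed were of genes that were not called. Without 1 line, the log2 fold change of Col6a3 between resistant and parental cells was -0.90 to 0.64, reversed without line #6 or #7, and 0.26 with a pseudocount of 8. Between P12 and resistant cells it was -0.63 to 0.31 for Col5a1 and -0.44 to 1.62 for Col8a1, both reversed without line #9. Between P12 and parental cells it was -0.48 to 0.050 for Col4a2 (reversed without line #6), -1.80 to 0.95 for Col5a2 (without line #6 or #9), -0.37 to 2.73 for Col8a2 (without line #3) and -0.38 to 0.29 for Col18a1 (without line #4 or #6). The cause of these moves was not tested. The block changed no call beyond those given beside the results. Levels at or below 4.07 normalized counts cannot be told from 3 reads or fewer, which limits the fold changes of 9 of 36 genes with 3 or more parental samples at or below 3 reads (Col1a2, Col3a1, Col5a2, Col5a3, Col6a6, Col8a2, Col14a1, Col17a1 and Col23a1) and of Col4a3 and Col4a4, with 3 and 4 such P12 samples. The same limit holds for Col6a3, Col24a1 and Col28a1, with 3, 5 and 4 such resistant samples.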
